A study of Mus musculus with 12 samples.

Results

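Tendon joins muscle to bone, and the genes that mark its cells were followed here in quadriceps muscle of mice, together with Angptl7. The 9 genes were Scx, Mkx, Tnmd, Tnc, Thbs4, Comp, Chad, Cilp and Angptl7, of 19938 genes with a probe set on the array. The first 8 are known tendon genes, and Angptl7 was added because of its large difference between the labelled groups. Each gene was to be represented by the probe set selected on the highest mean level over all 12 arrays. All 9 had 1 probe set, so that this choice removed nothing, and no filter on low values was applied. The names were picked with earlier results of these arrays known, so the counts over them are descriptions.

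Gene expression was measured with Affymetrix Mouse Gene 1.0 ST arrays in whole quadriceps of pups aged 7 days, 6 on arrays with WT titles and 6 on arrays with KO titles. All were C57Bl/6. The KO pups were cofilin-2 null, with no further treatment named, and the WT pups were wildtype littermates. The null allele itself was not described in the labels or methods. Cfl2 encodes the cofilin of skeletal muscle, which severs actin filaments. Each array held the RNA of a separate pup according to the methods, which describe pairs of a null pup and a wildtype littermate. The main fit did not use the pairs. Cfl2 was 12.31 to 12.43 on the log2 scale on the KO-labelled arrays and 4.92 to 7.71 on the WT-labelled arrays, which opposes the labels on every array. The groups are therefore called KO-labelled and WT-labelled, no array was moved, and every difference is KO-labelled minus WT-labelled. For Cfl2 and Angptl7, and likewise for Lep and Itga5 given further on, this direction is the reverse of the one that the study states.

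Tendon cells arise from progenitors that switch on Scx, and later express Mkx and Tnmd while they lay down parallel collagen fibrils. Glycoproteins such as Tnc, Thbs4 and Comp organise those fibrils and are found where muscle fibres attach. Chad and Cilp are shared with cartilage. Angptl7 encodes a secreted protein with a fibrinogen-like domain that is known from the cornea and the outflow tissue of the eye, where glucocorticoids induce it. A dissected quadriceps carries tendon and fascia as well as muscle fibres, and in bulk RNA fewer cells of a type and less RNA per cell cannot be told apart.

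Promoter sequences were printed for the member with the largest difference, Angptl7, for Cilp and Chad, which were lower on the KO-labelled arrays, and for Tnmd, which was higher there. They are RefSeq sequences of build GRCm38.p6, from 250 bases before to 50 bases after the start of the gene and read along its strand. Of the 9 members, 6 had an entry. Capitals mark every match to the E-box CANNTG, the motif class that scleraxis and other basic helix-loop-helix factors bind, which reads the same on both strands. The windows are chr4:148500413-148500712 on the minus strand for Angptl7, chr9:65264930-65265229 on the plus strand for Cilp, chr11:94564797-94565096 on the plus strand for Chad and chrX:133850758-133851057 on the plus strand for Tnmd.
Angptl7: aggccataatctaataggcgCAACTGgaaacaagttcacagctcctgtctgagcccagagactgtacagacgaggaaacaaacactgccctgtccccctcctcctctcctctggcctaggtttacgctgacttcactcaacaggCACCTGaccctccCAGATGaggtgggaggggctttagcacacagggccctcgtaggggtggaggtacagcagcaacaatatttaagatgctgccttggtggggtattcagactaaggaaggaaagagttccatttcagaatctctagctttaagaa
Cilp: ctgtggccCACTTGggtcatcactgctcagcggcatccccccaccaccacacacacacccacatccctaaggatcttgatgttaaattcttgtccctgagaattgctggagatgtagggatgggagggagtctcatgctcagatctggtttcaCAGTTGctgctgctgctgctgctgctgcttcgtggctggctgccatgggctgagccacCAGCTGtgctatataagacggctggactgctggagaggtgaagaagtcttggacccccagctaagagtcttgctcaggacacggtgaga
Chad: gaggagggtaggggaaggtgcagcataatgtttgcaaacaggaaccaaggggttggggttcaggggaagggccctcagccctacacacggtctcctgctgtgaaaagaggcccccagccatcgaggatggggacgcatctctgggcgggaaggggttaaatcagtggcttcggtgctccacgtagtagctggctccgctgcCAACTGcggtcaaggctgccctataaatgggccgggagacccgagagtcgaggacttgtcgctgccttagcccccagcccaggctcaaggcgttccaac
Tnmd: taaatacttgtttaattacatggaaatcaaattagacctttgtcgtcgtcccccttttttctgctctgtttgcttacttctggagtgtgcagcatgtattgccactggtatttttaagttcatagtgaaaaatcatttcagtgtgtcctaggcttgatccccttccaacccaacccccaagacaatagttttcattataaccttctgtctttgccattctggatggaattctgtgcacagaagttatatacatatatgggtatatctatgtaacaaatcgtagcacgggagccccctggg

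The Angptl7 and Cilp windows each held 3 E-boxes, the Chad window 1 and the Tnmd window 0. The Thbs4 window, not printed, held 2, and both start sites listed for Tnc held them, 3 and 2. Of 32851 promoter windows of this length, 72.3% held at least 1 E-box. The half-site TGTTCT of the glucocorticoid receptor, searched on both strands, was in none of the member windows and in 19.0% of all windows. A TATAAA on either strand was in the Chad window and both Tnc windows, and in 13.6% of all windows. These matches describe letters and not binding.

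The tendon genes did not move as a group. Of the 8, Cilp, Chad and Thbs4 were lower on the KO-labelled arrays, Tnmd and Mkx were higher, and Scx, Tnc and Comp did not pass the test. In all, 3 of 8 were called lower, where 12.4% of the 21789 probe sets tested were, and 2 of 8 were called higher, where 19.5% were. Calls in either direction made up 31.9% of all probe sets, of which 61.13% were higher, or 77.84% with each array centred on its median. The median log2 difference of the 8 genes was 0.02, beside -0.02 over all probe sets tested. Thbs4, Chad and Cilp were lower on all 6 KO-labelled arrays than on any labelled WT, a pattern of 4.92% of all probe sets, while the reverse pattern was shown by 0 of the 8 and by 10.5% of all probe sets. In either direction the groups did not overlap for 15.4% of all probe sets. Since the names were chosen with results known, nothing is read from these shares.

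**Figure D1:**
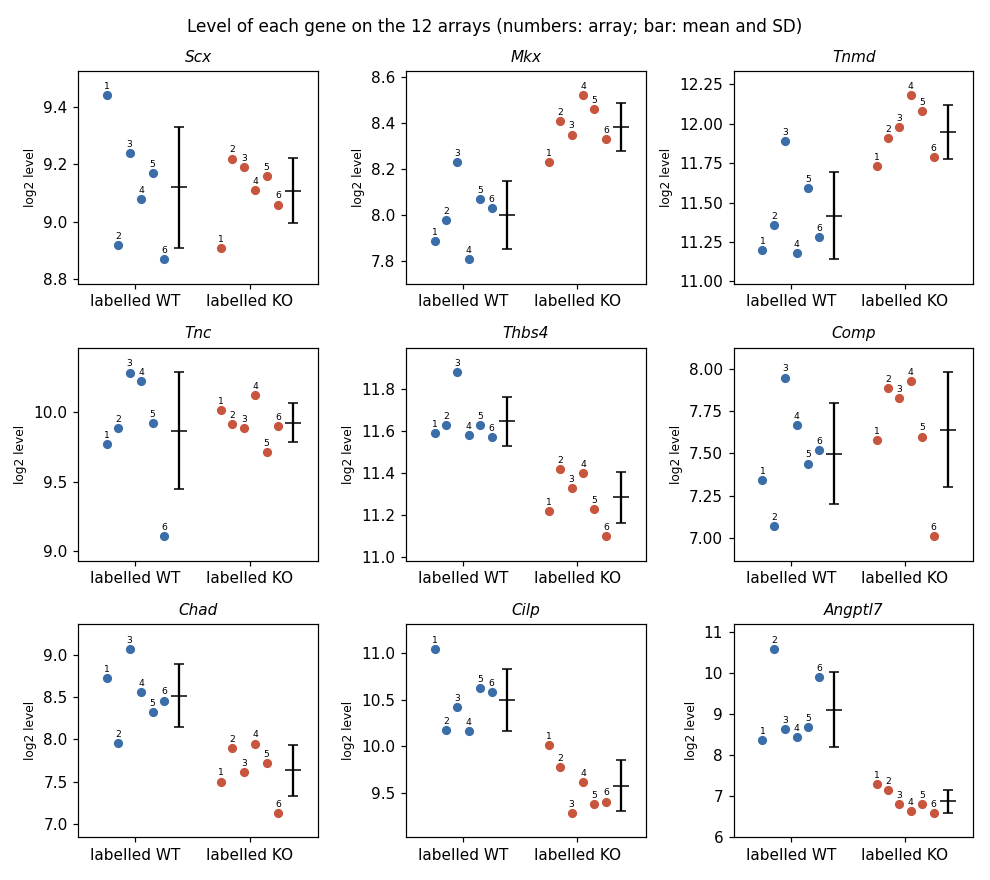
Log2 level of the 8 tendon genes and Angptl7 on each of the 12 arrays, with 1 panel per gene, the WT-labelled arrays in blue and labelled KO in red. Points carry the array number and bars give the mean and SD of 6 arrays. Thbs4, Chad, Cilp and Angptl7 show no overlap between the groups, Tnmd and Mkx lie higher on the KO-labelled arrays, and Scx, Tnc and Comp overlap broadly.

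Of the transcription factors, Mkx passed the test and Scx did not. Scx (chr15:76457411-76459468) encodes scleraxis, the factor that marks tendon progenitors. Its log2 level was 8.87 at the lowest, 9.13 at the median and 9.44 at the highest of the WT-labelled arrays, and 8.91, 9.14 and 9.22 on the KO-labelled ones. The ranges overlapped almost wholly. The difference was -0.01 ± 0.09 (SE, n = 6 and 6) with an adjusted p of 0.933, and its 95% interval ran from -0.20 to 0.18.

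Mkx encodes Mohawk, a homeobox factor that keeps tendon cells producing fibrillar collagen. It lay at 7.81, 8.01 and 8.23 (lowest, median and highest) on the WT-labelled arrays and at 8.23, 8.38 and 8.52 on the KO-labelled ones. The groups met in a single shared value, held by the highest array labelled WT and the lowest labelled KO. Mkx was 1.30-fold higher on the KO-labelled arrays (log2 difference 0.38 ± 0.07 SE, adjusted p = 0.000893). A test of the difference between the Scx and Mkx effects was not run.

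Tnmd (chrX:133851008-133865577), the gene whose promoter window held no E-box, encodes tenomodulin, a membrane glycoprotein of mature tendon cells. On the WT-labelled arrays its log2 level was 11.18 at the lowest, 11.32 at the median and 11.89 at the highest. On the KO-labelled ones the corresponding levels were 11.73, 11.95 and 12.18. Only the array titled WT3 reached into the range of the KO-labelled arrays. The level was 1.44-fold higher on the KO-labelled arrays (log2 difference 0.53 ± 0.12 SE, adjusted p = 0.00358).

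Tnc, Thbs4 and Comp encode oligomeric glycoproteins of the matrix. Tnc (chr4:63959785-64047015), tenascin-C of loaded tendon and of the junction between tendon and muscle, ranged from 9.11 to 10.28 with a median of 9.90 on the WT-labelled arrays, and from 9.71 to 10.12 with a median of 9.91 on the KO-labelled ones. The array titled WT6 was the lowest of all 12. The difference of 0.06 ± 0.16 (SE) did not pass (adjusted p = 0.802), with a 95% interval from -0.28 to 0.40.

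Thbs4 (chr13:92751586-92794818), a pentameric thrombospondin that is deposited where muscle attaches, had a log2 level of 11.57, 11.61 and 11.88 on the WT-labelled arrays and of 11.10, 11.28 and 11.42 on the KO-labelled ones (lowest, median and highest). Every array labelled KO lay below every array labelled WT. It was 1.29-fold lower on the KO-labelled arrays (log2 difference -0.36 ± 0.07 SE, adjusted p = 0.000925). Comp (chr8:70373548-70382066), the thrombospondin of cartilage and tendon, lay at 7.07, 7.48 and 7.95 on the WT-labelled arrays and at 7.01, 7.72 and 7.93 on the KO-labelled ones. The lowest arrays of both groups, WT2 and KO6, stood nearly level. The Comp difference was 0.14 ± 0.16 (SE, adjusted p = 0.529), with a 95% interval from -0.20 to 0.49, and without the arrays titled WT3 and KO6 it was 0.36 with an adjusted p of 0.0290.

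Chad and Cilp, both shared with cartilage, had the largest differences among the 8. Chad (chr11:94565047-94569127) encodes chondroadherin, a leucine-rich protein that links collagen to integrin on the cell surface. It lay at 7.96, 8.51 and 9.07 on the WT-labelled arrays and at 7.13, 7.67 and 7.95 on the KO-labelled ones. The gap between the groups was narrow, between the array titled WT2 and that labelled KO4. Chad was 1.84-fold lower on the KO-labelled arrays, with a log2 difference of -0.88 ± 0.17 (SE, adjusted p = 0.00144).

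Cilp (chr9:65265180-65280614) encodes a protein of the cartilage intermediate layer that binds the growth factor TGF-beta. Its log2 level was 10.16, 10.50 and 11.04 on the WT-labelled arrays and 9.29, 9.52 and 10.01 on the KO-labelled ones. The array titled WT1 stood highest and all KO-labelled arrays lay below the lowest labelled WT. Cilp was 1.89-fold lower on the KO-labelled arrays (log2 difference -0.92 ± 0.15 SE, adjusted p = 0.000506).

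Angptl7 (chr4:148495181-148500462, minus strand) had the largest difference of the 9, which is why it was chosen, and its values are therefore given without a test. Its log2 levels on the WT-labelled arrays were 8.37 on WT1, 10.59 on WT2, 8.64 on WT3, 8.43 on WT4, 8.68 on WT5 and 9.91 on WT6. On the KO-labelled arrays they were 7.28, 7.13, 6.80, 6.62, 6.79 and 6.58 for KO1 to KO6. The arrays titled WT2 and WT6 stood far above the others labelled WT, while the KO-labelled arrays were close together and all lower. The SD was 0.92 among the WT-labelled arrays and 0.28 among the KO-labelled ones. The level was 4.71-fold lower on the KO-labelled arrays (log2 difference -2.24 ± 0.34 SE), and it was the second lowest difference of the 21789 probe sets, while without the arrays titled WT2 and WT6 it was 3.17-fold lower (-1.66).

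**Figure D2:**
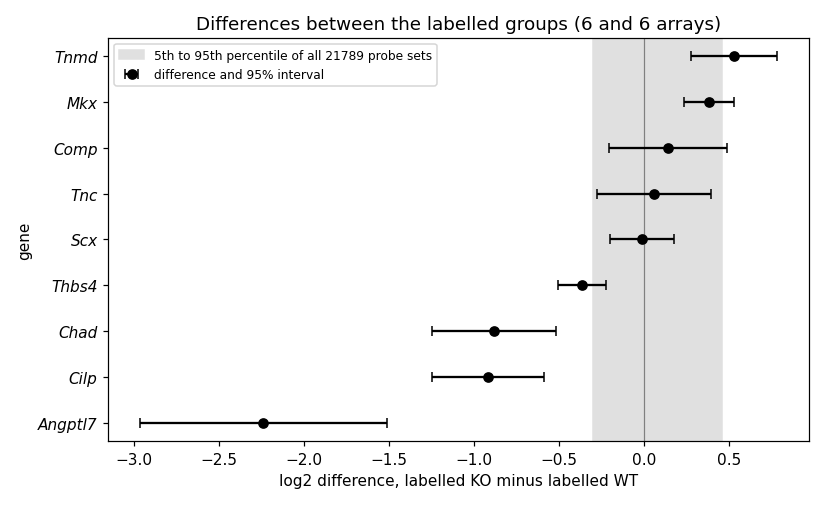
Log2 difference, labelled KO minus labelled WT, of the 9 genes, with points for the estimates and bars for the 95% interval of the limma fit over 6 and 6 arrays. The grey band spans the 5th to the 95th percentile of all 21789 probe sets, -0.30 to 0.46. Angptl7, Cilp, Chad and Thbs4 lie to the left of the band, Tnmd lies to its right, and Scx, Tnc, Comp and Mkx lie inside it.

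The correlation of every pair of members was computed within the 6 WT-labelled arrays and within the 6 labelled KO, 72 relations in all, with exact permutation tests and two-sided p-values. For Tnmd and Mkx Pearson's r was 0.93 in both groups (exact p = 0.00417 labelled WT and 0.00972 labelled KO) and Spearman's rho was 0.94 in both (exact p = 0.0167). After adjustment over the 72 relations the exact p was 0.15 labelled WT and 0.175 labelled KO, and 0.3 for rho, so that neither passed. Without the 2 arrays farthest from the median of Tnmd, r was 0.79 labelled WT and 0.77 labelled KO. The arrays titled WT3 and KO4 were the highest of their groups in both genes, WT4 and KO1 the lowest.

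Thbs4, Comp and Chad had r from 0.92 to 0.95 with each other on the KO-labelled arrays, and none of these relations passed after adjustment. Without the 2 arrays farthest from the median of the gene named first, r was 0.62 for Comp with Chad and 0.74 for Thbs4 with Chad. The relation of Thbs4 with Comp had r of 0.95 (exact p = 0.00417, adjusted 0.15) and rho of 0.94 (exact p = 0.0167, adjusted 0.3), and r was 0.99 without the 2 arrays farthest from the median of Thbs4. On the WT-labelled arrays the same pair had r of 0.63 (exact p = 0.272, adjusted 0.723; rho 0.03, exact p = 0.983, adjusted 1.0), and r was -0.66 without the 2 arrays farthest from the median of Thbs4. Of the 72 relations, 8 had an unadjusted exact permutation p under 0.05 and 0 passed after adjustment. The smallest p that 6 arrays allow is 0.00139, too large for a single pair to pass on its own over 72 relations. In 23 of the 36 pairs r had the same sign in both groups. Of the 8 tendon genes, 6 were highest on WT3 among the WT-labelled arrays.

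No relation of Angptl7 with a tendon gene passed the adjusted test. Its r with them lay between -0.80 and 0.10 on the WT-labelled arrays, lowest for Scx (exact p = 0.0625, adjusted 0.5; rho -0.77, exact p = 0.103, adjusted 0.569; r of -0.83 without the 2 arrays farthest from the median of Scx). On the KO-labelled arrays r ran from -0.54 for Mkx to 0.79 for Cilp (exact p = 0.0778, adjusted 0.56; rho 0.49, exact p = 0.356, adjusted 0.883). The Cilp value rested on few arrays, since r was -0.66 without the 2 farthest from the median of Cilp.

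**Figure D3:**
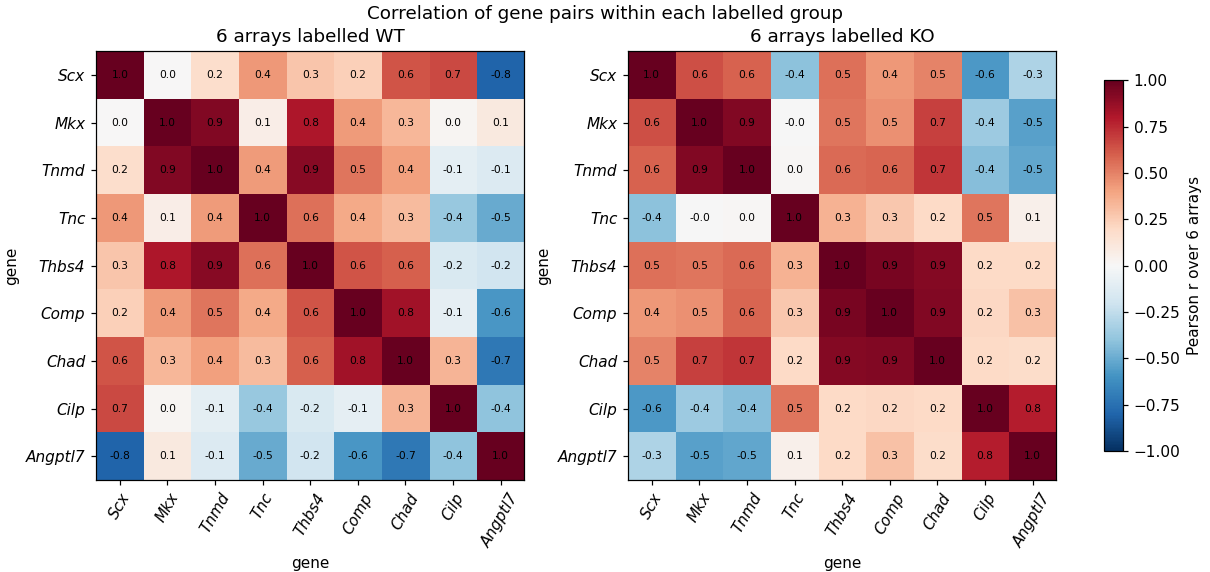
Pearson's r of each pair of the 9 genes over the 6 WT-labelled arrays (left) and the 6 labelled KO (right), with genes on both axes, red for positive and blue for negative values. The pair Tnmd and Mkx has r of 0.93 in both panels, Thbs4, Comp and Chad form a block on the right, and the row of Angptl7 is mostly blue on the left.

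The genes most like Tnmd and Angptl7 were taken by the sum of the r values in the 2 groups, among 18707 other genes, and their r is high because they were picked for it. For Tnmd they were Tspan6 (r of 0.97 labelled WT and 0.99 labelled KO), Ikbip (0.90 and 0.99), Vkorc1 (0.88 and 0.97), Mkx (0.93 and 0.93) and Rcan3 (0.98 and 0.87), each over 6 arrays a group. Tspan6, a tetraspanin, is also the measured gene nearest to Tnmd at higher coordinates of the X chromosome, 25490 bases away. It was higher on the KO-labelled arrays, by 0.72 ± 0.13 (log2 difference, SE) with an adjusted p of 0.000812. Pcdh19, a protocadherin and the neighbour on the other side at 161963 bases, was also higher there (0.40 ± 0.07 SE, adjusted p = 0.000688).

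For Angptl7 the most alike were Pcnt (0.95 labelled WT and 0.94 labelled KO), Erfe (0.87 and 0.99), Ston1 (0.96 and 0.88), Chrdl2 (0.90 and 0.93) and Kalrn (0.92 and 0.91). Pcnt encodes the centrosome protein pericentrin and Erfe the hormone erythroferrone, which lowers hepcidin. No tendon gene was among them. Angptl7 lies inside the span of Mtor, on the opposite strand. Mtor, the growth kinase, was lower on the KO-labelled arrays by much less, with a log2 difference of -0.34 ± 0.09 (SE, adjusted p = 0.0100).

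Genes that overlap or adjoin the members moved in both directions. Chad lies within the span of Acsf2, which encodes an acyl-CoA synthetase and was slightly higher on the KO-labelled arrays (0.15 ± 0.04 SE, adjusted p = 0.0167). Scx lies within the span of Bop1, a ribosome biogenesis gene at 0.06 ± 0.04 (SE, adjusted p = 0.263). Of 21 overlapping or nearest measured genes, 5 were called higher and 2 lower, beside 19.5% and 12.4% of all probe sets.

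Of 19 measured genes known to regulate tendon, 5 were called lower and 1 was called higher on the KO-labelled arrays, with a median log2 difference of -0.09. The calls in either direction were about as frequent as the 31.9% over all probe sets, and nothing is read from them about this list. The 5 became 3 without the array titled WT5 and 2 with median centring. Ccn2, a matrix protein induced by TGF-beta and by load, was at 10.60 to 11.46 on the WT-labelled arrays and 9.74 to 10.59 on the KO-labelled ones (log2 difference -0.73 ± 0.16 SE, adjusted p = 0.00342). The receptor Tgfbr1 differed by -0.40 ± 0.05 and the ligand Tgfb3 by -0.21 ± 0.06 (SE, adjusted p = 6.46e-05 and 0.0230), while Smad3, which carries the signal to the nucleus, was higher by 0.37 ± 0.06 (SE, adjusted p = 0.000384). Egr1, an early growth response factor that acts in tendon, differed by -0.25 ± 0.31 (SE, adjusted p = 0.567) and Sox9, a factor of cartilage and of tendon attachments, by 0.18 ± 0.12 (SE, adjusted p = 0.262).

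Structural genes of tendon and fascia were mostly higher on the KO-labelled arrays, along with Tnmd and Mkx. Of 22 measured, 13 were called higher and 1 lower, where 19.5% and 12.4% of all probe sets were. Their median log2 difference was 0.21. Kera, which encodes the proteoglycan keratocan, was 1.93-fold higher, at 9.41 ± 0.42 on the WT-labelled arrays and 10.36 ± 0.15 on the KO-labelled ones (SD, n = 6), without overlap (log2 difference 0.95 ± 0.16 SE, adjusted p = 0.000500). The fibril-associated collagen gene Col14a1 differed by 0.68 ± 0.09 and the proteoglycan gene Lum by 0.60 ± 0.10 (SE, adjusted p = 7.30e-05 and 0.000365). Prg4, lubricin of gliding and joint surfaces, was the single gene of these called lower (-1.25 ± 0.36 SE, adjusted p = 0.0167). It varied from 7.33 to 9.60 on the WT-labelled arrays and from 6.20 to 7.75 on the KO-labelled ones, and the groups overlapped. Its call was lost without WT3 and KO6. Col1a1, the main fibril collagen, was 1.20-fold higher (0.26 ± 0.06 SE, adjusted p = 0.00390).

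Of 12 genes listed as receptors or binding partners of these matrix proteins, 5 were called lower and 1 higher (median -0.15). Of all probe sets, 12.4% were called lower and 19.5% higher. Itga9, an integrin subunit that binds tenascin-C, was 2.01-fold lower, at 10.04 to 10.58 on the WT-labelled arrays and 9.09 to 9.77 on the KO-labelled ones (log2 difference -1.01 ± 0.12 SE, adjusted p = 3.82e-05). Itga5, of the fibronectin receptor, differed by -0.64 ± 0.08 (SE, adjusted p = 5.73e-05). Itga2, a subunit of the integrin that binds collagen and chondroadherin, went the other way, at 8.16 to 8.87 and 9.28 to 9.45 (0.81 ± 0.11 SE, adjusted p = 0.000153). Sdc4, the proteoglycan syndecan-4, differed by -0.39 ± 0.08 (SE, adjusted p = 0.00228). The next list, of 12 genes of the attachment of muscle to tendon, shared Itgb1 with the receptors. Beside the same 12.4% and 19.5% of all probe sets, 9 of its genes were called lower and 1 higher (median -0.36). They included Dmd (-0.98 ± 0.12 SE, adjusted p = 6.80e-05), which encodes dystrophin, and Col22a1, a collagen gene of the junction itself (-0.45 ± 0.07 SE, adjusted p = 0.000330). Utrn, the relative of dystrophin, differed by -0.69 ± 0.12 and the linker gene Plec by -0.44 ± 0.10 (SE, adjusted p = 0.000566 and 0.00577).

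Relatives of the members were called about as often as all probe sets. Of 14, 3 were called higher and 2 lower (median -0.05), where 19.5% and 12.4% of all probe sets were. The thrombospondin gene Thbs3 was higher on the KO-labelled arrays by 0.43 ± 0.12 and Thbs2 by 0.25 ± 0.06 (SE, adjusted p = 0.0149 and 0.00894), opposite in sign to Thbs4, while Thbs1 differed by -0.02 ± 0.11 (SE, adjusted p = 0.899). Cilp2, the relative of Cilp, differed by 0.10 ± 0.09 (SE, adjusted p = 0.418), and the tenascin gene Tnxb by 0.07 ± 0.11 (SE, adjusted p = 0.673). The factor genes Tcf15 and Irx5 differed by 0.20 ± 0.05 and -0.17 ± 0.05 (SE, adjusted p = 0.0102 and 0.0101). In the angiopoietin-like family and its angiopoietin relatives 3 of 7 were called higher and 1 lower, beside the same 19.5% and 12.4%. Angpt1, the ligand of the vessel receptor Tek, was 2.07-fold higher on the KO-labelled arrays (log2 difference 1.05 ± 0.12 SE, adjusted p = 2.44e-05) and Angptl1 1.62-fold higher (0.69 ± 0.09 SE, adjusted p = 0.000107), opposite in sign to Angptl7. Angpt2 differed by 0.41 ± 0.08 and Angpt4 by -0.22 ± 0.06 (SE, adjusted p = 0.00204 and 0.0206). With quantile normalization, with median centring or with only the brighter probe sets tested, 0 of this family were called lower. In the same 3 settings 0 of the relatives above were called lower. Angptl4, a lipoprotein lipase inhibitor, differed by -0.31 ± 0.15 (SE, adjusted p = 0.133).

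**Figure D4:**
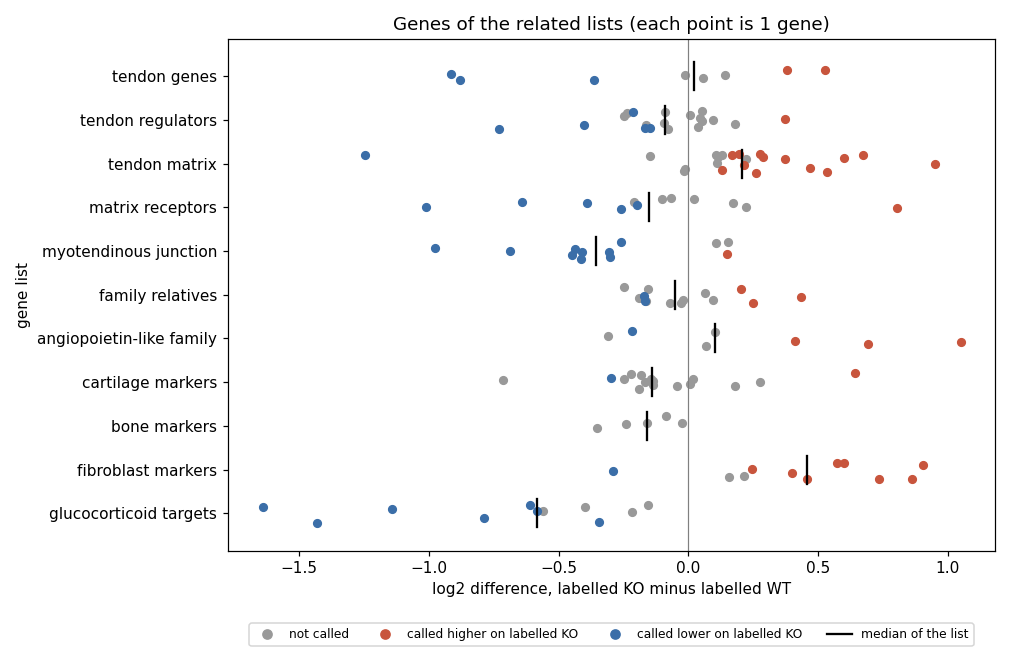
Log2 differences, labelled KO minus labelled WT, of the genes of 11 lists, with 1 point per gene, red where called higher, blue where called lower and grey where not called at an adjusted p of 0.05. Vertical scatter within a list carries no value, and black lines mark medians. Tendon genes fall on both sides, tendon matrix and fibroblast genes mostly to the right, and junction genes and glucocorticoid targets mostly to the left.

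Markers of other tissues moved with some of these results. The summed markers of cartilage, taken as the mean log2 level of 16 genes, ranged from 6.47 to 7.28 on the WT-labelled arrays and from 6.30 to 6.97 on the KO-labelled ones, and 1 of the 16 was called higher (Acan, aggrecan, 0.64 ± 0.23 SE, adjusted p = 0.0425) and 1 lower (Col9a2, -0.30 ± 0.09 SE, adjusted p = 0.0189). The Acan call was lost without any 1 of WT1, WT2, WT5, WT6, KO2, KO3, KO4 or KO5, when 0 of the markers were called higher, and the Col9a2 call without WT3 and KO6 together. Over all probe sets 19.5% were called higher and 12.4% lower. Col2a1, the defining collagen of cartilage, differed by 0.01 ± 0.23 (SE, adjusted p = 0.984). Within each group the arrays richest in cartilage markers, WT3 and KO4, also had the highest Chad and Comp, and KO6 was lowest in all 3. Their part in the Chad and Comp values was not tested. Without WT3 and KO6 the Chad difference went from -0.88 to -0.67 (adjusted p = 0.00308).

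Bone markers were dim, with a mean of 5 genes of 5.53 to 6.91 labelled WT and 5.55 to 6.03 labelled KO, highest on WT4, and 0 of 5 were called by limma or in any alternative run, with 0 at an unadjusted p under 0.05. Fibroblast markers, among them Lum again, moved with Tnmd and Mkx. Of 11 such markers, 8 were called higher and 1 lower, where 19.5% and 12.4% of all probe sets were. The marker mean ranged from 9.11 to 9.55 on the WT-labelled arrays and from 9.62 to 9.92 on the KO-labelled ones, without overlap. The part of these markers in the Tnmd and Mkx values was not tested. Dpt, dermatopontin, differed by 0.91 ± 0.10 and Dpp4 by 0.86 ± 0.14 (SE, adjusted p = 2.21e-05 and 0.000439), Clec3b by 0.74 ± 0.12 (SE, adjusted p = 0.000353), while Pdgfra, the receptor that defines muscle fibroblasts, differed by -0.29 ± 0.09 (SE, adjusted p = 0.0249). Adipocyte markers had means of 8.23 to 9.21 labelled WT and 8.30 to 10.12 labelled KO, among the latter lowest on KO5. Beside 19.5% of all probe sets, 3 of the 5 markers were called higher. They were Lep, leptin (2.12 ± 0.36 SE, adjusted p = 0.000545), Plin1 (1.72 ± 0.33 SE, adjusted p = 0.00151) and Adipoq (1.11 ± 0.35 SE, adjusted p = 0.0280). Of 3 Schwann cell markers 1 was called higher, beside the same 19.5%. It was S100b (0.35 ± 0.06 SE, adjusted p = 0.000369), and the count was 0 when only the brighter probe sets were tested. Sox10 differed by -0.03 ± 0.07 and Mbp by 0.115 ± 0.127 (SE, adjusted p = 0.777 and 0.516).

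Of 7 skeletal muscle markers 4 were called lower, beside 12.4% of all probe sets. They were Ttn (-0.40 ± 0.10), Des (-0.25 ± 0.04), Mylpf (-0.14 ± 0.04) and Tnnt3 (-0.12 ± 0.04, all SE). Their adjusted p ran from 0.000291 to 0.0180. The markers of the labelled tissue were bright, with Acta1, the actin of muscle fibres, at 13.72 ± 0.03 labelled WT and 13.64 ± 0.02 labelled KO (SD, n = 6). Their mean ranged from 12.67 to 12.89 on the WT-labelled arrays and from 12.55 to 12.74 on the KO-labelled ones, and their part in the member values was not tested. No background level came with the values, so that no marker has a known floor.

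WT2 and WT6, the arrays highest in Angptl7, were also the highest in glucocorticoid targets. WT1, the next highest in the targets, had the lowest Angptl7 of the WT-labelled arrays, at 8.37. The mean log2 level of 11 such targets was 10.37 on WT2 and 10.53 on WT6, 9.96 on WT1, 9.37 to 9.51 on WT3, WT4 and WT5, and 9.06 to 9.27 on the KO-labelled ones. Fkbp5, the target that dampens the glucocorticoid receptor, stood at 10.32 on WT2 and 9.72 on WT6. It was 8.25 on WT1, 7.48 to 7.68 on WT3, WT4 and WT5, and 6.90 to 7.24 on the KO-labelled arrays. Over the 6 WT-labelled arrays, Angptl7 and the mean of the targets had r of 0.82 (exact p = 0.0569, adjusted over 2 groups 0.114) and rho of 0.60 (exact p = 0.242, adjusted 0.483). Without WT2 and WT6, which were the 2 farthest from the median, r was -0.56, so that the relation rested on those arrays. On the KO-labelled arrays r was 0.43 (exact p = 0.393, adjusted 0.393) and rho 0.09 (exact p = 0.919, adjusted 0.919), and r was -0.43 without the 2 farthest arrays. Of the 11 targets 7 were called lower on the KO-labelled arrays (median -0.58), beside 12.4% of all probe sets. They were led by the factor gene Zbtb16 (-1.64 ± 0.21), Fkbp5 (-1.43 ± 0.43), the clock gene Per1 (-1.14 ± 0.19) and Ddit4 (-0.79 ± 0.23, all SE). The adjusted p of those named ran from 7.09e-05 to 0.0204. The part of the targets in the Angptl7 values was not tested. The relation was looked at after the values had been seen.

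**Figure D5:**
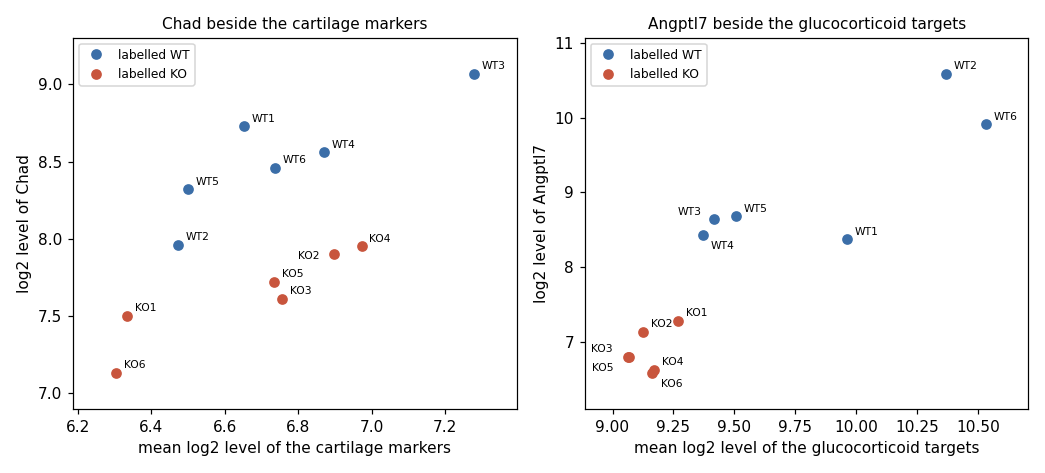
Left, log2 level of Chad against the mean log2 level of 16 cartilage markers; right, log2 level of Angptl7 against the mean of 11 glucocorticoid targets, with 1 labelled point per array, blue for labelled WT and red for labelled KO. On the left WT3 is highest and KO6 lowest in both measures, and on the right WT2 and WT6 stand apart at the top.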

How the data were processed

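Quadriceps RNA of 12 pups, 6 per label, was measured on Affymetrix Mouse Gene 1.0 ST arrays, 1 per pup. According to the methods, the authors extracted images with GCOS and made normalized gene level values with Affymetrix Power Tools. The sources used here give no version, summary algorithm or build. From their range, the values deposited by the authors were taken to be log2 levels. Groups came from the sample titles.

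Of 35556 rows, 21789 probe sets had 1 symbol in the platform annotation and were tested, 1621 had several and 12146 are unnamed here. Symbols were updated from RefSeq (GRCm38.p6). Differences were fitted with limma 3.58.1 in R 4.3.3 without covariates, and Benjamini-Hochberg adjusted over the tested probe sets at 0.05. A gene with several probe sets was represented by the brightest. Depth is not defined for arrays, and their number limits the precision. The members and gene lists were chosen with earlier results of these data known. On data simulated for this comparison (21789 probe sets), 24 of 50 planted log2 differences of 0.25 and 47 of 50 of 0.5 were recovered. There were 9 false calls. Differences were planted in 50 probe sets at each of the sizes 0.25, 0.5, 1 and 2, with independent noise. The planted share was far smaller than the 31.9% called in the data, so the recovered and false counts need not hold there.

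Genes named were the members, Cfl2, Mtor, up to 4 called genes of each list with the largest difference, genes needed to read a marker list, and the genes most alike. The genes next to members, Col1a1, Egr1, Sox9, Thbs1, Cilp2, Tnxb and Angptl4 fall outside this rule and were chosen after their values were seen. The deletion was not located relative to the Cfl2 probe set. Tools for permutation and figures were Python 3.11.15 and numpy 2.4.6. The closing section gives 23 alternatives.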

Additional observations from a re-analysis of the deposited data

Results flagged for a closer look

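Among 20 combinations of a gene (the 9 members and Mtor) with a labelled group, 1 held an array far from the other 5: Thbs4 on the array labelled WT3, at 11.88, with the others labelled WT at 11.57 to 11.63. Chance gives such an array in about 1 of 20 groups. WT3 was also the highest of its group in Tnmd, Mkx, Comp, Chad, Tnc, the cartilage markers and Cfl2 (7.71). Thbs4 differed by -0.32 without it.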

How the results depend on the processing

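Of the 8 tendon genes, 3 were called lower under every alternative. Those called higher numbered 2, or 3 without the arrays labelled WT3 and KO6, a setting chosen after seeing the data, when Comp passed as well. Differences of Tnmd ranged from 0.48 to 0.65, of Mkx from 0.31 to 0.44, of Thbs4 from -0.39 to -0.28, of Cilp from -1.002 to -0.81, of Chad from -1.03 to -0.67 and of Angptl7 from -2.38 to -1.66. Scx changed sign with median centring (0.039) and without WT3 and KO6 (0.022), and ranged from -0.062 (without WT6) to 0.052 (without WT1) when 1 array was left out. Tnc changed sign with array weights (-0.0012) and without WT2 and WT6 (-0.13), and ranged from -0.092 (without WT6) to 0.14 when 1 array was left out. Neither passed anywhere.

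Probe sets called lower numbered 2702, from 2141 to 2910 when 1 array was left out, and 1557 with median centring and 1792 when only the brighter probe sets were tested. Centring moved the share of higher among calls from 61.13% to 77.84%. Of 598 recomputed list counts, 66 moved by over 1.5 times, 61 of them with a reported count of 3 or fewer. With centring, tendon regulators called lower went from 5 to 2 and skeletal muscle markers from 4 to 2. All probe sets called ranged from 5924 to 7155 and those higher from 3752 to 4337 when 1 array was left out. The t-test of the methods, adjusted, called 6342 probe sets. The methods describe pairs of littermates, and the titles do not say which arrays form a pair. Deviations from the group mean had r from -0.22 to 0.17 between same-numbered arrays, which cannot decide whether the numbers mark the pairs. With the number as a replicate block 6074 probe sets were called instead of 6952, with 3 tendon genes lower and 2 higher.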
